A study of Mus musculus with 8 samples.

Results

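The proteasome is the barrel-shaped protease that degrades ubiquitin-tagged proteins. Its core particle stacks rings of alpha subunits (Psma genes) around rings of beta subunits (Psmb genes), of which Psmb5, Psmb6 and Psmb7 carry the constitutive catalytic sites. A regulatory particle of ATPases (Psmc genes) and non-ATPase subunits (Psmd genes) recognises, unfolds and feeds substrates into the core. In cells exposed to interferon or microbial products the catalytic subunits can be replaced by Psmb8, Psmb9 and Psmb10, and the activator ring of Psme1 and Psme2 can cap the core; this form, the immunoproteasome, is known for cutting peptides suited to presentation on MHC class I.

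Proteasome genes were taken as all probes whose platform symbol starts with Psma, Psmb, Psmc, Psmd, Psme, Psmf or Psmg and a number. That choice gave 49 of 19057 named genes and 86 of the 45281 probes on the bead array. Of these, 82 read 47 proteasome genes, and 4 read Psmc3ip and Psme3ip1, whose symbols fit the rule but which are not proteasome genes. No probe was listed for the inhibitor Psmf1. Detection on at least 2 arrays left 65 probes of 41 proteasome genes: the 5 immunoproteasome genes, 27 constitutive subunits and 9 other genes (assembly chaperones, other activators and the testis subunit Psma8). Psma1, Psma3, Psma6, Psmd3, Psmb11 and Psmg4 were left without a value because none of their probes passed that filter.

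Macrophages had been grown from bone marrow of 10-week-old male mice, either wildtype c57Bl6/J or labelled Bcl6-/- on the c57Bl6/J background, Bcl6 being a transcriptional repressor. Cells of each genotype were left unstimulated or were given LPS, a bacterial lipid that macrophages sense, at a dose and time not given in the sources used here. Each of the 4 groups was hybridised to 2 arrays that the labels call technical replicates, so the p-values take in the variation between repeat arrays and nothing of that between mice. All levels below are log2 signals after background correction and quantile normalisation, given for replicate 1 and then replicate 2.

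The arrays detected between 11857 and 13209 probes each, and arrays of 1 group correlated more closely (r from 0.992 to 0.994) than arrays of different groups (r from 0.889 to 0.954). The single Bcl6 probe did not settle the genotype, since its level was higher in the labelled knockout than in the wild type without LPS (log2 difference 1.53) and lower with LPS (-0.94); the direction of every genotype comparison therefore rests on the labels. The macrophage markers were present, with 7 of 8 tested, whereas no marker of dendritic, T, B or natural killer cells, nor Ifng, was tested. Of the macrophage markers, Csf1r was lower in the labelled knockout without and with LPS (-0.62 and -0.69, adjusted p = 0.0104 and 0.00459) and Fcgr1 lower without LPS (-0.64, adjusted p = 0.0424). Granulocyte markers moved with genotype as well: the summed linear signal of the 6 tested (of 7 listed) was 5029 to 5452 in unstimulated wild type, 3806 to 3926 in wild type with LPS and 1527 to 1558 in the labelled knockout. Elane and Prtn3 were detected on 4 arrays each, none of them labelled knockout. They thus met the detection filter only through wild-type arrays, and their lower values are not independent of that filter. Ngp, Camp and Ltf were detected on all 8 arrays and differed by -2.14, -2.02 and -1.37 without LPS. The part of these marker differences in the genotype comparisons below was not tested, and in such bulk samples fewer cells of a type and less RNA per cell cannot be told apart.

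Because Psmb9 and the peptide transporter gene Tap1 start from a shared stretch of chromosome 17 and point away from each other, the sequence between their starts is shown, together with the stretch before the start of Psmb8, the one immunoproteasome gene that passed the test for a difference of the LPS change between the genotypes, and those before the starts of Psmb5 and Psmd8, the members with the largest genotype differences. The sequences are from RefSeq on GRCm38.p6, and 34 of the 41 tested genes had an entry. Capitals mark a match to 1 of the motifs searched on both strands of the 250 bases before each start.
Psmb9 to Tap1 intergenic, chr17:34187331-34187555, plus strand: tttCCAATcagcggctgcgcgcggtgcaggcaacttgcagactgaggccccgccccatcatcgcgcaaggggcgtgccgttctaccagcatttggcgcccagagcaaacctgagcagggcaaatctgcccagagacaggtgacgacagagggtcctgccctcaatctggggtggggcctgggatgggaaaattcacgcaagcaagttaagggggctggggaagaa
Psmb8, chr17:34197945-34198194, plus strand: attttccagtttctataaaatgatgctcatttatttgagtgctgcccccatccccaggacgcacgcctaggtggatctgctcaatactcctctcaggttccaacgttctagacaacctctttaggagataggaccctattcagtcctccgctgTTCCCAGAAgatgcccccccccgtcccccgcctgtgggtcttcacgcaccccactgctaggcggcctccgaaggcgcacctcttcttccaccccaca
Psmb5, chr14:54617996-54618245, minus strand: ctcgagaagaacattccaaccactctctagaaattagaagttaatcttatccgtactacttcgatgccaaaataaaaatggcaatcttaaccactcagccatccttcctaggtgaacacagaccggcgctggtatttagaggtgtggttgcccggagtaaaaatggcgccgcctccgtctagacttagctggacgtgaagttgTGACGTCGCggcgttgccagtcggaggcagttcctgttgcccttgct
Psmd8, chr7:29180674-29180923, minus strand: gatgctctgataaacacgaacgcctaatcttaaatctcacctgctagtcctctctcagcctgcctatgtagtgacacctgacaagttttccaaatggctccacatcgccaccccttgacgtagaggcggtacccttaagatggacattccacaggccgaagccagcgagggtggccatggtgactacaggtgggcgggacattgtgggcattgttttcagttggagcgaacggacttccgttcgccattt

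The capitals mark CCAAT in the first sequence, the interferon-gamma-activated element TTCNNNGAA in the Psmb8 sequence and the antioxidant response element TGACNNNGC in the Psmb5 sequence; the Psmd8 sequence held none of these motifs. The core of the interferon-stimulated response element (ISRE) lay before 0 of the 5 immunoproteasome genes, before 2 of 22 constitutive genes with an entry and before 2.98% of all 32851 promoters. TTCNNNGAA lay before 1 of 5 immunoproteasome and 0 of 22 constitutive genes, against 7.02% of all promoters. TGACNNNGC lay before 0 of 5 and 4 of 22, against 10.2%, and CCAAT before 1 of 5 and 7 of 22, against 33.8%. No printed stretch held more than 1 match, so motifs could not overlap one another there. A match is only a match of letters in this window.

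LPS in wild-type cells raised all 5 immunoproteasome genes, by 0.52 to 1.09 on the log2 scale, where 20.4% of all tested probes rose. The catalytic subunit gene Psmb8 read 11.89 and 12.02 without LPS and 13.19 and 12.90 with it, Psmb9 read 9.65 and 9.69 and then 10.51 and 10.75, and Psmb10 read 12.33 and 12.23 and then 13.27 and 13.25. Both LPS arrays lay above both unstimulated arrays for each of these 3 genes. With 2 arrays a group such a separation is a weak criterion: Psma2 separated likewise without passing the test. The share of all tested probes that separated was not counted, here or for the statements on overlap below. Psmb8 rose 2.12-fold (log2 change 1.09 ± 0.14 SE, adjusted p = 0.000449 by limma's moderated test with Benjamini-Hochberg adjustment over all 14418 tested probes). By its brightest probe it was the one proteasome gene past 2-fold here, against 13.5% of all tested probes past it in either direction. Psmb10 rose 1.98-fold (adjusted p = 0.000149) and Psmb9 1.95-fold (adjusted p = 0.000603). Counted by probe, 3 of 65 tested proteasome probes rose past 2-fold. These were both Psmb8 probes and the second Psmb10 probe (2.11-fold, adjusted p = 0.000845 by the same test).

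The activator genes moved less. Psme1 read 12.84 and 12.89 in unstimulated wild-type cells and 13.45 and 13.31 with LPS, a rise of 0.52 ± 0.11 SE (adjusted p = 0.00556). Psme2 read 9.35 and 9.18 and then 10.07 and 9.98, a rise of 0.76 ± 0.12 SE (adjusted p = 0.00103). The groups did not overlap for either gene.

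**Figure D1:**
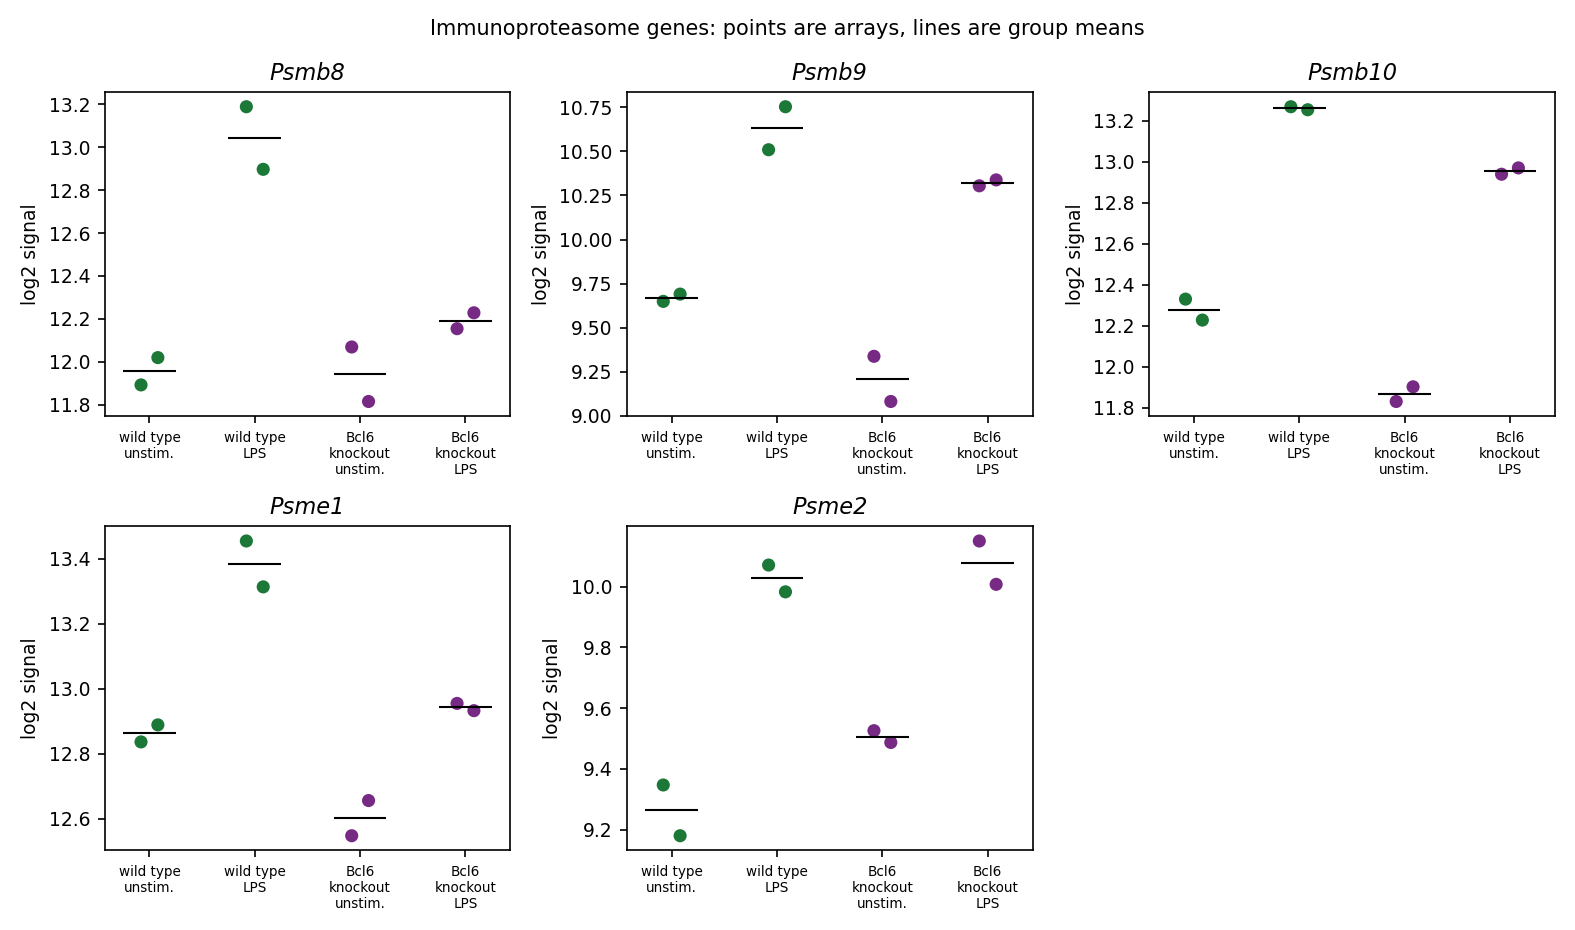
Log2 signal of the 5 immunoproteasome genes in the 4 groups, wild type in green and labelled knockout in purple, with points for arrays, lines for group means and a separate vertical axis for each gene. Psmb9 and Psmb10 rose with LPS in both genotypes, while Psmb8 with LPS reached 13.19 and 12.90 in wild type and 12.15 and 12.23 in the labelled knockout.

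Across all 41 tested proteasome genes, 11 rose and 3 fell with LPS in wild-type cells, where 20.4% of all tested probes rose and 24.9% fell. The median change was 0.18, against -0.07 over all tested probes. Cyclic loess in place of quantile normalisation gave 19 that rose and 3 that fell, and median scaling 16 and 3. Shares of all tested probes under another normalisation are not given, here or for such counts below. Counts under those settings thus stand without that comparison. Of the 27 constitutive subunits 5 rose and 0 fell, with a median of 0.18. These were the regulatory particle genes Psmd6 (0.89), whose levels are given with the genotype comparison, Psmd11 (0.73) and Psmd2 (0.35), the ATPase Psmc1 (0.46) and the alpha subunit Psma5 (0.64). The call of Psmd2 was lost in 8 of 16 alternatives, with an adjusted p of up to 0.159. None of the 7 constitutive beta ring genes passed the test, and their median was -0.01.

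Chaperones that assemble the complex moved in both directions. Psmd5, which helps to build the base of the regulatory particle, rose by 0.61 ± 0.14 SE (adjusted p = 0.00784). Psmd9, a chaperone of the same base, fell by 0.68 (SE 0.15, adjusted p = 0.00575), although its signal was dim, at 6.58 and 6.42 without LPS and 6.01 and 5.63 with it. Psmg1, a chaperone of the core particle, fell by 0.46 (SE 0.12, adjusted p = 0.0127). The third gene to fall was Psma8, a dim probe of a subunit known from testis (-0.55). Psmg2 (-0.32), Psmg3 (-0.13) and the activators Psme3 (-0.07) and Psme4 (0.08) did not pass the test. The brightest probe of the chaperone Psmd10 (0.38) did not pass either, but its other tested probes were higher with LPS in wild type (0.69 and 0.48, adjusted p = 0.00312 and 0.0132) and in the labelled knockout (0.40 and 0.53, adjusted p = 0.038 and 0.00815).

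With LPS in the cells labelled knockout, 4 of the 5 immunoproteasome genes rose, where 19.2% of all tested probes rose. Psmb8 did not pass the test. Psmb9 read 9.34 and 9.08 without LPS and 10.30 and 10.34 with it, a 2.16-fold rise (log2 change 1.11 ± 0.13 SE, adjusted p = 0.000259). Psmb10 read 11.83 and 11.90 and then 12.94 and 12.97, a 2.13-fold rise (1.09 ± 0.11 SE, adjusted p = 8.23e-05). Psmb8 read 12.07 and 11.82 and then 12.15 and 12.23, a change of 0.25 ± 0.14 SE (adjusted p = 0.192). The second tested probe of Psmb8, dimmer than the first, rose by 0.60 ± 0.14 SE in the same comparison (adjusted p = 0.00836).

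The activator genes rose in the labelled knockout as well. Psme1 read 12.55 and 12.66 and then 12.96 and 12.93 (0.34 ± 0.11 SE, adjusted p = 0.0357). Psme2 read 9.53 and 9.49 and then 10.15 and 10.01 (0.57 ± 0.12 SE, adjusted p = 0.00457). In each gene both LPS arrays lay above both unstimulated arrays. The call of Psme1 was lost in 7 of 16 alternatives, with an adjusted p of up to 0.153.

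In all, 10 of the 41 genes rose and 2 fell with LPS in the labelled knockout, where 19.2% of tested probes rose, 25.6% fell and 14% passed 2-fold in either direction. The median was 0.13, against -0.09 over all tested probes. Median scaling, under which all tested probes had a median of -0.25, gave 8 that rose and 4 that fell, and cyclic loess gave 18 and 2. Constitutive subunits again numbered 5 higher and 0 lower of 27, with a median of 0.06: Psmd6 (1.10), Psmb5 (0.97), Psmd14 (0.83), Psmd11 (0.51) and Psmb6 (0.49). Psmb6, the constitutive subunit that Psmb9 replaces, read 13.47 and 13.50 in unstimulated wild type, 13.66 and 13.97 in wild type with LPS, 13.74 and 13.51 in the unstimulated labelled knockout and 14.12 and 14.10 there with LPS. The core chaperones Psmg1 (-0.81 ± 0.12 SE, adjusted p = 0.000739) and Psmg2 (-0.64 ± 0.12 SE, adjusted p = 0.00298) were the 2 genes that fell. Psma8 rose by 0.45 ± 0.15 SE (adjusted p = 0.0451), a call lost in 9 of 15 alternatives, with an adjusted p of up to 0.413.

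**Figure D2:**
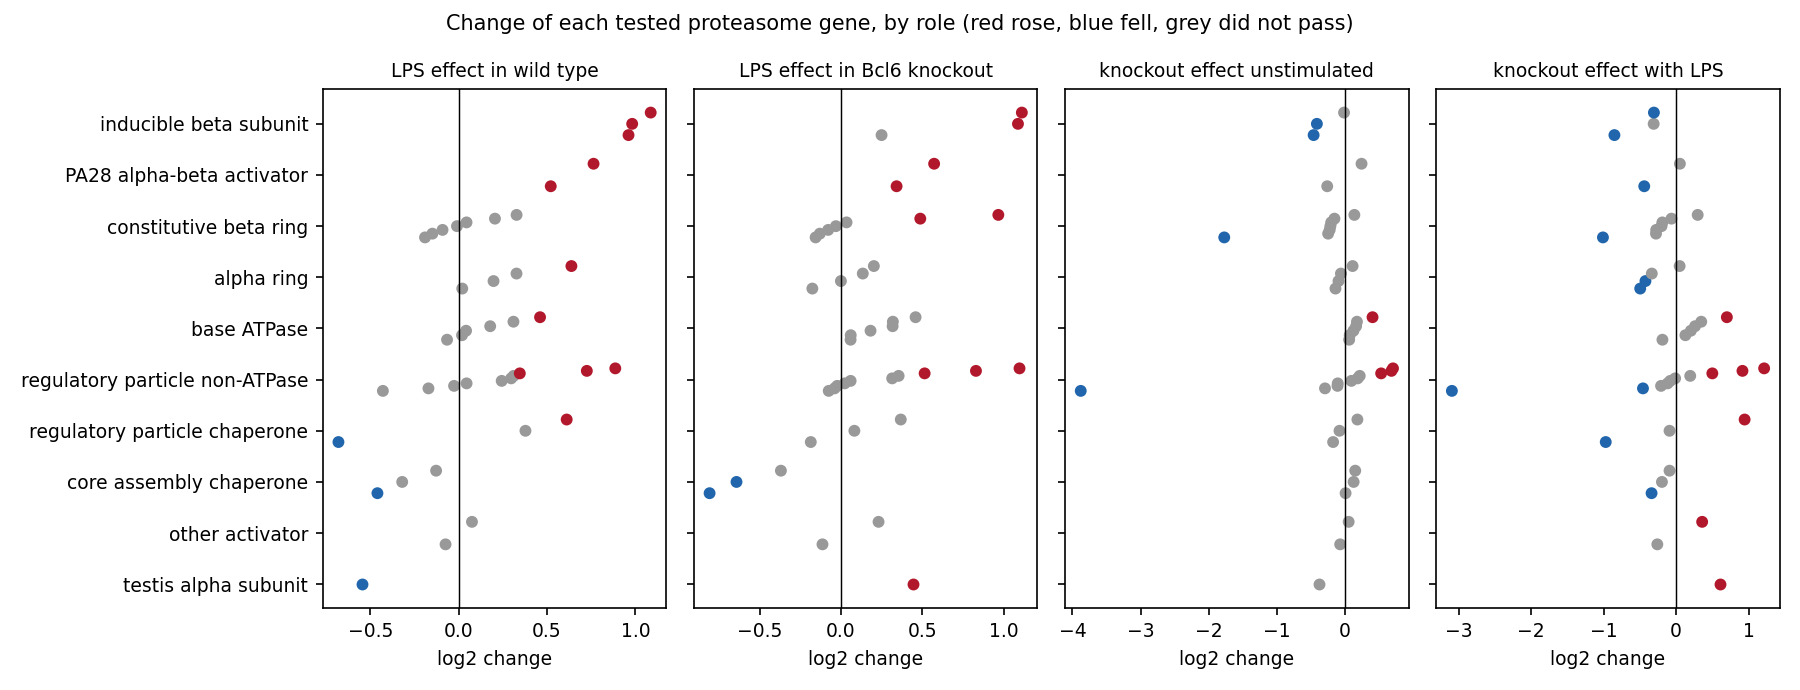
Log2 change of each of the 41 tested proteasome genes (1 point a gene, read by its brightest probe) in the 4 comparisons, grouped by role, in red where it rose, blue where it fell and grey where it did not pass at an adjusted p under 0.05. The horizontal scales differ between panels, and the far left points of the genotype panels are Psmd8 at -3.88 and -3.09.

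A per-array index set the immunoproteasome against the constitutive subunits. It is the median over the 5 immunoproteasome genes of each log2 signal less that gene's mean over all 8 arrays, minus the same median over the 27 constitutive subunits. The index was -0.17 and -0.20 in unstimulated wild type, 0.48 and 0.52 in wild type with LPS, -0.36 and -0.36 in the unstimulated labelled knockout and 0.30 and 0.28 there with LPS. The 4 groups did not overlap. LPS moved it by 0.69 in wild type and by 0.65 in the labelled knockout, and genotype by -0.18 without LPS and -0.21 with it. With the constitutive core subunits alone as the reference, the LPS shifts were 0.84 and 0.79, but the genotype shifts were 0.038 without LPS and -0.0065 with it.

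The catalytic pairs did not share 1 pattern. Relative to unstimulated wild type, the log2 ratio of Psmb9 to Psmb6 was 0.67 and 0.60 in wild type with LPS, -0.59 and -0.61 in the unstimulated labelled knockout and 0.0036 and 0.049 there with LPS. The ratio of Psmb10 to Psmb7 was 0.98 and 1.00, -0.28 and -0.24, and 0.93 and 0.99 in the same order. Psmb7, its constitutive partner, lay between 12.39 and 12.76 on all 8 arrays. The ratio of Psmb8 to Psmb5 was 0.92 and 0.84, 1.89 and 1.63, and 1.07 and 1.01. It was thus highest in the unstimulated labelled knockout, where the Psmb5 signal was lowest. A ratio alone shows unequal change within a pair and not which partner moved. Without LPS the labelled knockout differed from wild type by -0.01 for Psmb8 and by -1.77 for Psmb5. The genotype difference of this ratio without LPS thus lay in the Psmb5 signal. Each gene was read by its brightest probe, and a second tested probe of Psmb6 was nearly as bright (mean 13.74 against 13.76). With LPS it changed by 0.06 in wild type and 0.40 in the labelled knockout, against 0.33 and 0.49 for the probe used. Between the genotypes it differed by -0.17 without LPS and 0.16 with it, against 0.14 and 0.30. The Psmb9 to Psmb6 values thus rest on the choice of probe. Values of the other pairs do so as well. With LPS in the labelled knockout the dimmest of 4 tested Psmb7 probes changed by 0.45, against -0.13 for the probe used. The second Psmb8 probe changed by 0.60 there, against 0.25, and the second Psmb10 probe by 1.11, against 1.09.

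**Figure D3:**
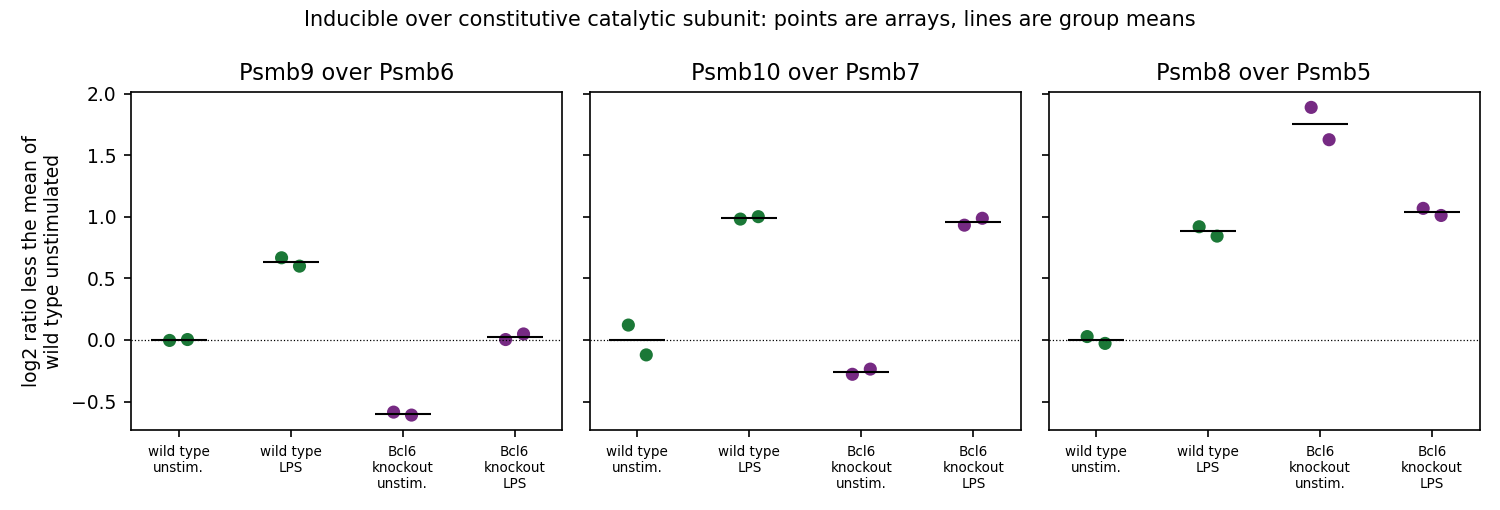
Log2 ratio of each inducible catalytic subunit to its constitutive partner, less the mean of unstimulated wild type, with points for arrays and lines for group means. Each gene is read by its brightest probe. Other tested probes, among them a second, nearly as bright Psmb6 probe, are not shown. Psmb8 over Psmb5 was highest in the unstimulated labelled knockout (1.89 and 1.63), whereas Psmb9 over Psmb6 was lowest there (-0.59 and -0.61).

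Between the genotypes without LPS, 4 of 41 proteasome genes were higher in the labelled knockout and 4 lower, where 16.3% of all tested probes were higher, 16.1% lower and 7.92% past 2-fold in either direction. The median difference was -0.01, against 0.00 over all tested probes. Psmd8, a non-ATPase subunit of the regulatory particle, read 13.19 and 13.06 in unstimulated wild type and 9.26 and 9.24 in the unstimulated labelled knockout. With LPS it read 12.70 and 12.69 in wild type and 9.31 and 9.90 in the labelled knockout. Every labelled knockout array lay below every wild-type array, by a fitted difference of -3.88 ± 0.18 SE without LPS (adjusted p = 2.18e-06) and -3.09 ± 0.18 SE with LPS (adjusted p = 6.32e-06). A single tested probe read this gene, and its second probe was detected on 0 arrays.

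Psmb5, the constitutive chymotrypsin-like subunit that Psmb8 replaces, was the other gene past 2-fold. It read 9.95 and 10.13 in unstimulated wild type, 10.35 and 10.14 in wild type with LPS, 8.26 and 8.27 in the unstimulated labelled knockout and 9.17 and 9.30 there with LPS. All 4 labelled knockout arrays lay below all 4 wild-type arrays. The difference was -1.77 ± 0.13 SE without LPS (3.42-fold lower, adjusted p = 2.73e-05) and -1.01 ± 0.13 SE with LPS (2.01-fold lower, adjusted p = 0.000435). A single probe read Psmb5.

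Of the 5 immunoproteasome genes, Psmb9 (-0.46 ± 0.13 SE, adjusted p = 0.0307) and Psmb10 (-0.41 ± 0.11 SE, adjusted p = 0.0188) were lower in the unstimulated labelled knockout. Psmb8 (-0.01), Psme1 (-0.26) and Psme2 (0.24) did not pass the test. Second probes differed from this: that of Psme1 was lower (-0.50, adjusted p = 0.0123), and that of Psmb10 did not pass (-0.23, adjusted p = 0.294). The 4 genes that were higher were the regulatory particle genes Psmd6 (0.70), Psmd14 (0.68) and Psmd2 (0.53) and the ATPase gene Psmc1 (0.40). The counts depended on single arrays: without wild type unstimulated replicate 1, or without either array of the unstimulated labelled knockout, 4 genes passed in place of 8, and without wild type unstimulated replicate 2, 5 did. Of the 8 calls, only those of Psmd8 and Psmb5 passed in all 16 alternatives. The call of Psmc1 was lost in 6 of them, that of Psmb9 in 4 and that of Psmb10 in 3. Those of Psmd14 and Psmd2 were lost in 2 each, and that of Psmd6 in 1.

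Between the genotypes with LPS, 7 genes were higher in the labelled knockout and 10 lower, where 20.2% of tested probes were higher, 23.1% lower and 11.6% past 2-fold in either direction. The median was -0.12, against -0.04 over all tested probes. Median scaling, under which all tested probes had a median of -0.30, gave 3 higher and 18 lower, and cyclic loess gave 8 higher and 7 lower. Psmd14, the deubiquitinase of the regulatory particle, read 9.06 and 9.46 in unstimulated wild type, 9.53 and 9.59 in wild type with LPS, 9.86 and 10.02 in the unstimulated labelled knockout and 10.70 and 10.84 there with LPS. The labelled knockout arrays lay above all wild-type arrays, and the difference with LPS was 1.21 ± 0.15 SE (2.32-fold, adjusted p = 0.000386). Its second tested probe differed by 0.87 ± 0.13 SE (adjusted p = 0.000843).

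Psmd6, another non-ATPase subunit of the regulatory particle, was at its lowest in unstimulated wild type (5.88 and 6.04) and at its highest in the labelled knockout with LPS (7.89 and 7.63). It read 6.94 and 6.75 in wild type with LPS and 6.77 and 6.55 in the unstimulated labelled knockout, and these 2 groups overlapped. The fitted changes were 0.89 ± 0.14 SE and 1.10 ± 0.14 SE with LPS in wild type and labelled knockout (adjusted p = 0.0014 and 0.000425), and 0.70 ± 0.14 SE and 0.92 ± 0.14 SE between the genotypes without and with LPS (adjusted p = 0.00693 and 0.00136). This probe was dim: in unstimulated wild type its signals lay close to the lowest detected on those arrays (5.81 and 5.96). The second Psmd6 probe was detected on 0 arrays. Over the 16 alternatives the LPS changes ran from 0.41 to 0.98 in wild type and from 0.65 to 1.22 in the labelled knockout. The genotype differences ran from 0.31 to 0.82 without LPS and from 0.56 to 1.04 with it.

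**Figure D4:**
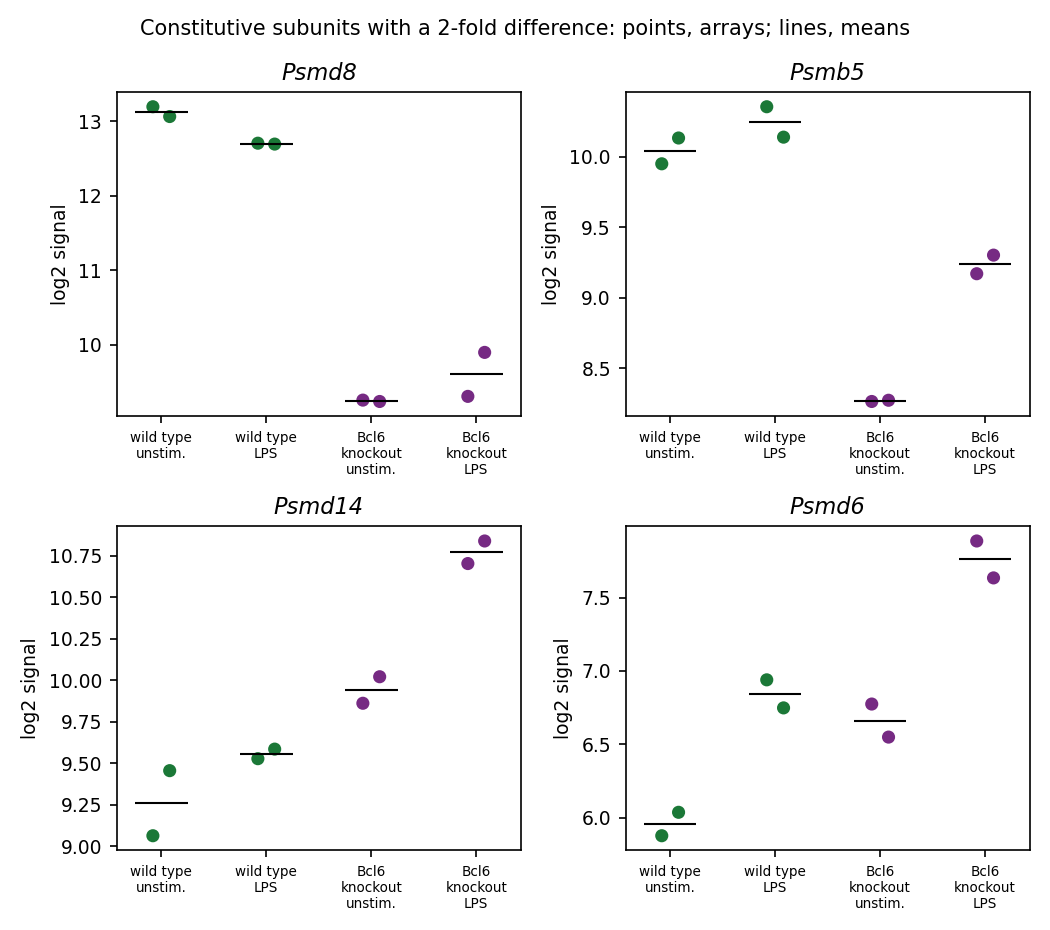
Log2 signal of the 4 constitutive subunits with a change of at least 2-fold in some comparison, wild type in green and labelled knockout in purple, with points for arrays, lines for group means and a separate vertical axis for each gene. Psmd8 and Psmb5 were lower on every labelled knockout array, and Psmd14 was higher on each of them.

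Among the immunoproteasome genes with LPS, Psmb8 was lower in the labelled knockout by 0.85 (log2 difference -0.85 ± 0.14 SE, adjusted p = 0.00191), Psme1 (-0.44 ± 0.11 SE, adjusted p = 0.0134) and Psmb10 (-0.31 ± 0.11 SE, adjusted p = 0.0465) were lower too, and Psmb9 (-0.31, adjusted p = 0.0946) and Psme2 (0.05) did not pass the test. The call of Psmb10 was lost in 11 of 16 alternatives, with an adjusted p of up to 0.205. Both tested Psmb8 probes were lower (-0.85 and -0.67). The chaperones again split: Psmd5 was lower (-0.97 ± 0.14 SE, adjusted p = 0.000879) and Psmd9 higher (0.95 ± 0.15 SE, adjusted p = 0.00126).

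Further genes that were lower in the labelled knockout with LPS were the alpha subunits Psma5 (-0.50) and Psma4 (-0.42), the regulatory particle scaffold Psmd1 (-0.46) and Psmg1 (-0.34), besides Psmd8 and Psmb5. The call of Psmg1 was lost in 9 of 16 alternatives, with an adjusted p of up to 0.233. Those that were higher, besides Psmd14, Psmd6 and Psmd9, were Psma8 (0.61), the ATPase Psmc6, Psmd2 (0.50) and the activator Psme3 (0.36). Psmc6 was at least 1.19-fold higher, a bound set by its failing detection on both wild-type LPS arrays. Its probe was detected on 3 arrays, none of them wild type. It thus met the detection filter only through labelled knockout arrays, and its place among the higher genes is not independent of that filter. The call of Psmc6 was lost in 5 of 15 alternatives. Without wild type LPS replicate 1 or wild type LPS replicate 2, 11 genes passed in place of 17, and without Bcl6 knockout LPS replicate 2, 8 did.

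Probes of 1 gene did not always move together. Psmd1 was the only gene with tested probes that passed in opposite directions, in the comparison of genotypes with LPS: its brightest probe was lower by 0.46 (adjusted p = 0.0129), its next probe differed by -0.29 (adjusted p = 0.0804) and its dimmest was higher by 0.55 (adjusted p = 0.00641). The dimmer probes of Psmd12 (1.30), Psmd11 (0.98), Psmc2 (0.58) and Psmb7 (0.52 for the dimmest of 4) were also higher, while the brightest probes of these genes (0.19, -0.12, -0.19 and -0.28) did not pass. The reverse was seen as well: a dimmer probe of Psmd7 (-0.52), Psma7 (-0.46), Psmb2 (-0.43) and Psmd10 (-0.37) was lower where the brightest did not pass. The second probe of Psmd9 differed by 0.05 and did not pass (adjusted p = 0.833), against 0.95 for the brighter one. Over the 18 genes with several tested probes, the dimmest probe gave the higher value in 8, with a median of dimmest minus brightest of -0.11.

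The LPS change itself differed between the genotypes for 4 of 41 genes, 2 higher and 2 lower in the labelled knockout, where 3.60% of tested probes were higher, 4.64% lower and 4.22% past 2-fold. The LPS change of Psmb8 was smaller in the labelled knockout by a difference of -0.84 ± 0.20 SE (adjusted p = 0.0421), and that of Psmb5 was larger by 0.76 ± 0.18 SE (adjusted p = 0.0383). For Psmd5 and Psma8 the LPS change had opposite signs in the genotypes. That of Psmd5 was 0.61 in wild type and -0.19, which did not pass, in the labelled knockout (difference -0.80 ± 0.20 SE, adjusted p = 0.0461). That of the dim Psma8 was -0.55 in wild type and 0.45 in the labelled knockout (difference 0.99 ± 0.22 SE, adjusted p = 0.0307). The second Psmb8 probe gave -0.52 (adjusted p = 0.142). For Psmb9 (0.15), Psmb10 (0.11), Psme1 (-0.18) and Psme2 (-0.19) the difference did not pass, with adjusted p from 0.522 to 0.709. The calls of Psmb5, Psmb8 and Psmd5 were lost whichever of the 8 arrays was left out, with adjusted p of up to 0.115, 0.125 and 0.138, and that of Psma8 was lost for 6 of the 8, with an adjusted p of up to 0.101.

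Genes that act with the proteasome were read from a list of 22, of which 12 were tested; they share no probes with the members. With LPS in wild type 5 rose and 3 fell, among them Nfe2l2 (1.29) and Nfe2l1 (0.53), transcription factors that drive proteasome genes under oxidative and proteotoxic stress, and Zfand2a (-1.28), a stress-induced proteasome-associated protein. In the labelled knockout 4 rose and 1 fell. Over all tested probes 20.4% rose and 24.9% fell in wild type and 19.2% and 25.6% in the labelled knockout, so nothing particular to the list is read from its counts. The proteasome-bound deubiquitinases Usp14 (0.80 and 1.30) and Uchl5 (0.58 and 0.70) were higher in the labelled knockout without and with LPS, in a list where 3 of 12 were higher and 0 lower without LPS (16.3% and 16.1% of all tested probes) and 5 higher and 2 lower with it (20.2% and 23.1%). Nfe2l2 was lower with LPS there (-0.72 ± 0.13 SE, adjusted p = 0.0023). Pomp, the maturation factor of the core, did not pass in any comparison.

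Of 6 regulators and neighbours of the immunoproteasome genes, 5 were tested. With LPS 4 of them rose and 1 fell in each genotype, and in the labelled knockout 0 were higher and 1 lower without LPS and 0 higher and 3 lower with it. Over all tested probes, 20.4% rose and 24.9% fell with LPS in wild type, and 19.2% and 25.6% in the labelled knockout. Between the genotypes 16.3% were higher and 16.1% lower without LPS, and 20.2% and 23.1% with it. This short list was not tested as a set. The gene that fell with LPS was Irf8, an interferon regulatory factor of myeloid cells, with a log2 change of -1.51 in wild type (adjusted p = 7.36e-05) and -1.20 in the labelled knockout (adjusted p = 0.000257). Irf1, a transcription factor that induces Psmb8, Psmb9 and Psmb10, read 12.17 and 11.91 in unstimulated wild type, 14.58 and 14.68 in wild type with LPS, 10.96 and 11.22 in the unstimulated labelled knockout and 13.95 and 14.03 there with LPS. Its level was lower in the labelled knockout both without (-0.95) and with LPS (-0.64). Tap1, which shares the printed stretch with Psmb9, rose by 1.93 in wild type and 1.70 in the labelled knockout, and was lower in the labelled knockout with LPS (-0.57). Nlrc5, an activator of MHC class I genes and Psmb9, rose by 2.17 and 1.40, and its LPS change differed between the genotypes (-0.77 ± 0.16 SE, adjusted p = 0.0264).

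The probes whose pattern over the 8 arrays was most like that of Psmb9 were those of Rnf145 (r = 0.994), Seh1l, Fubp1, Dcp1a, Ptprj, Fam102b, Gbe1 and Kdm7a (r from 0.989 to 0.991). These correlations run over 4 groups of 2 arrays, so they describe a shared order of groups.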

How the data were processed

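Total RNA of 8 macrophage samples (4 groups of 2 technical replicates) was read on single-colour Illumina bead arrays. The authors deposited bead intensities without normalisation between arrays (array medians of 112 to 130) and, per the file headers, a detection p-value beside each. A second deposited table holds the authors' processed intensity, in the same order of probes as the raw values (rank correlation 1) and with array medians of 121. The submitters' processing notes name GenomeStudio; how the processed values were normalised was not stated in the labels. Columns of samples outside the series numbered 0.

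The nec function of limma corrected the background (offset 16; it infers the negative controls by way of the detection p-values), and arrays were quantile-normalised on the log2 scale (limma 3.58.1, R 4.3.3). The filter asked for a detection p under 0.01 on 2 or more arrays, which 14418 of 45281 probes met. The platform annotation listed 34903 probes, 34885 with 1 symbol and 18 with several; 10378 were unnamed here, and 34807 were matched by gene identifier to the RefSeq annotation of GRCm38.p6. The 4 group means were fitted in a single limma model over the kept probes (4 residual and 4.36 prior degrees of freedom), with Benjamini-Hochberg adjustment inside each of the 5 contrasts. A gene rose or fell where its brightest kept probe had an adjusted p under 0.05; changes of at least 2-fold were counted apart. The fit was tested on simulated data. Where both arrays of the dimmer group failed detection, the fold is a bound: the brighter group's mean against the dimmer group's mean of, the probe's signal or, where higher, the lowest signal detected on that array. The number of arrays limits the precision. The index and the ratios have no test.

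The members, lists and tests were chosen with earlier results of these data known. Named genes were the immunoproteasome genes, Psmb5 to Psmb7, members past 2-fold, the largest other changes of each contrast, chaperones and activators, members whose probes passed in opposite directions, the probes most like Psmb9, and 2 lists of pathway genes and regulators. Same-numbered arrays did not deviate together (r from -0.02 to 0.01), so the numbers were not read as pairs. Alternatives covered background correction, normalisation, the authors' processed values, the filter, a fit over genes, a replicate block and leaving out each array.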

Additional observations from a re-analysis of the deposited data

Results flagged for a closer look

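Of all tested probes, 3.60% passed as higher and 4.64% as lower for the difference of the LPS effect between the genotypes. That difference passed the test for 4 of 41 proteasome genes, 2 higher and 2 lower. It was taken as the LPS change in the labelled knockout minus that in wild type, on the log2 scale by limma's moderated test. It was 0.99 ± 0.22 SE for Psma8, a dim probe detected on 7 of the 8 arrays, and 0.76 ± 0.18 SE for the constitutive catalytic subunit Psmb5. It was -0.84 ± 0.20 SE for the inducible catalytic subunit Psmb8 and -0.80 ± 0.20 SE for the assembly chaperone Psmd5. Adjusted p lay between 0.0307 and 0.0461, and the calls of Psmb5, Psmb8 and Psmd5 were lost whichever of the 8 arrays was left out, that of Psma8 for 6 of the 8.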

How the results depend on the processing

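All 55 gene changes that passed kept their direction in every alternative that gave a value, and 26 passed in each of them. With another filter, the fit over genes or the replicate block, the log2 changes are those of the main fit. Their direction could not turn there. Leaving out an array outside the groups compared moves a change only through the normalisation. By comparison, 9 of 14 passed in every alternative for LPS in wild type, 8 of 12 for LPS in the labelled knockout, 2 of 8 for genotype without LPS, 7 of 17 for genotype with LPS and 0 of 4 for the difference of the LPS effect. The cause of each move below was not tested, except where fewer arrays or other genes are its construction.

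Counts of changed proteasome genes moved by over 1.5 times with cyclic loess, to 22 for LPS in wild type (19 higher, 3 lower) and 20 for LPS in the labelled knockout (18 higher, 2 lower). The share of all tested probes that passed in each alternative is not given, so no count in this section is set against it. The count of 4 for the difference of the LPS effect became 7 with no background correction and 7 with the authors' processed intensities, 2 with median scaling and 0 with no filter on dim probes, where 9 had an unadjusted p under 0.05 by limma. With a replicate block that count was 1; the arrays share only a number, and the block moved no other count by over 1.5 times. Leaving out 1 array gave 10 to 15 genes for LPS in wild type, 9 to 13 for LPS in the labelled knockout, 4 to 9 and 8 to 16 for genotype without and with LPS, and 0 to 2 for the difference (not always genes of the original 4), with 6 to 9 at an unadjusted p under 0.05 by limma where it was 0.

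Median scaling moved the median of all tested probes to -0.25 for LPS in the labelled knockout, -0.30 for genotype with LPS and -0.22 for the difference of the LPS effect. With it the split of higher and lower calls was 8 and 4 for LPS in the labelled knockout, 3 and 18 for genotype with LPS and 0 and 2 for the difference; cyclic loess gave 8 and 7 for genotype with LPS.

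The index of immunoproteasome against constitutive subunits for LPS in wild type was 0.66 with no background correction, 0.66 with median scaling, 0.65 with cyclic loess, 0.64 with the processed intensities, 0.72 with no filter and 0.84 against core subunits alone. For LPS in the labelled knockout it was 0.60, 0.53, 0.61 and 0.60 in the first 4 of these and 0.79 against core subunits. For genotype without LPS it reversed to 0.038 against core subunits, and for genotype with LPS it was -0.0065 there, -0.31 with median scaling and -0.18 with probes detected on all 8 arrays. Leaving out 1 array gave 0.67 to 0.77, 0.60 to 0.71, -0.19 to -0.093 and -0.30 to -0.15 in the order of the comparisons.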
